A study of Homo sapiens and Mus musculus with 18 samples.

Results

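The genes described are 9 that mark trophectoderm or amnion: the transcription factor genes GATA2, GATA3, TFAP2C, ELF3 and TEAD4, the cofactor gene VGLL1 and the keratin genes KRT8, KRT18 and KRT19. They were taken by gene symbol in human and in mouse, which gave 18 genes of the 74630 in the 2 count tables, 9 of 44910 in human and 9 of 29720 in mouse. All 9 human genes and 8 of the 9 mouse genes had enough counts to be tested. Mouse Vgll1 did not, and its counts are given but not tested.

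The study followed gastruloids, aggregates of embryonic stem cells (ESCs) that model the trunk of the embryo after gastrulation, with RNA-seq of 18 libraries in 9 groups of 2 biological replicates. In human, the groups were naïve ESCs and primed ESCs of the H9 line, primed ESCs of the RUES2-GLR line, and RUES2-GLR gastruloids treated with retinoic acid (RA-gastruloids) sampled early (24 h) and late (120 h) after induction. In mouse, all groups came from the E14Tg2a line: naïve ESCs, epiblast-like cells (EpiLCs, the primed state), and early and late gastruloids, sampled on the third and the sixth day after induction. Naïve H9 ESCs were chemically reset cells, grown with LIF and the inhibitors PD0325901, XAV939 and Gö6983. They were propagated on mouse embryonic fibroblast feeders, which were then removed by passaging. Primed human ESCs were grown in StemFlex without feeders, and mouse naïve ESCs with LIF and the inhibitors CHIR99021 and PD0325901. CHIR was also given in the induction of gastruloids of both species, and RA in human alone. RUES2-GLR is a reporter line. Human naïve cells were H9 and gastruloids RUES2-GLR, so the steps from naïve to primed and from primed to gastruloid were measured in different lines. Total counts ran from 3681739 to 38771193 in human, lowest in replicate 2 of primed RUES2-GLR ESCs, and from 6487157 to 20052505 in mouse.

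Trophectoderm is the outer epithelium of the blastocyst, the first cell type set apart in the mammalian embryo and the source of the placenta. TEAD4, the factor on DNA through which Hippo signalling acts, and the GATA and TFAP2 factors switch on its genes, and it is held together by keratin filaments and junctions. The amnion, which lines the amniotic cavity and arises from the epiblast in primates, uses many of the same factors, and human naïve ESCs are known to be able to enter the trophectoderm fate. GATA, TFAP2 and keratin genes also act in later tissues, among them blood, surface ectoderm, kidney, notochord and gut.

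The genes lie apart in the genome except for the keratin pair. In GRCh38, GATA2 (ENSG00000179348) spans chr3:128479427-128493201 on the minus strand, GATA3 (ENSG00000107485) chr10:8045378-8075198, TFAP2C (ENSG00000087510) chr20:56629306-56639283, VGLL1 (ENSG00000102243) chrX:136532215-136556807, ELF3 (ENSG00000163435) chr1:202007945-202017183 and TEAD4 (ENSG00000197905) chr12:2959330-3040676, all on the plus strand but GATA2. KRT8 (ENSG00000170421, chr12:52897187-52949954, minus strand) and KRT18 (ENSG00000111057, chr12:52948871-52952906, plus strand) are neighbours. Their annotated exons, taken over all transcripts, share 525 bases on opposite strands, 7.63% of the exon length of KRT8 and 17.1% of that of KRT18. KRT19 (ENSG00000171345) lies at chr17:41523617-41528308 on the minus strand. The library kit keeps no strand information, so reads from bases shared by opposite genes cannot be told apart. The paper states that counting used default settings, which leave reads that overlap both genes uncounted. The same holds for GATA2 and GATA2-AS1 (78 shared exon bases) and ELF3 and ELF3-AS1 (664). The counts of GATA2-AS1 (at most 56 in a library) and ELF3-AS1 (at most 44) therefore come from reads outside the shared bases. KRT8 and KRT18 also have many processed pseudogenes. The 48 KRT8 pseudogenes in the human table together drew between 1.39% and 11.1% of the count of KRT8 in the same library, and the 51 KRT18 pseudogenes between 0.521% and 7.57% of that of KRT18.

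Promoter sequence is shown for the 4 human genes with a window at a RefSeq start site (GRCh38.p14) that is that of the reference transcript. They are also the 4 genes that fell most from naïve to primed ESCs. RefSeq promoter windows matched 5 of the 9 human genes. Each line gives the 250 bases before the start, 5′ to 3′ on the strand of the gene. Capitals mark matches to 2 of the 3 motifs searched, each on both strands and without regard to overlap. The TFAP2 motif was GCCNNNGGC, which is its own reverse complement. The motif for TEAD proteins was GGAATG, as bound by TEAD4 and its relatives. For GATA factors, the letters searched for in these windows were AGATAA, and no match of this kind was found here. The windows are chr3:128493202-128493451 (minus strand), chr10:8054438-8054687, chrX:136531965-136532214 and chr1:202010337-202010586 (plus strand).
GATA2: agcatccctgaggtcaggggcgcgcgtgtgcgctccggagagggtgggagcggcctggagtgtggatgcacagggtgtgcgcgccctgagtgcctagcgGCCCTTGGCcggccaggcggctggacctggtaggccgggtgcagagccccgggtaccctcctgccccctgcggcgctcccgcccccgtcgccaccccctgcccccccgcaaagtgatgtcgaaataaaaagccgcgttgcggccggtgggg
GATA3: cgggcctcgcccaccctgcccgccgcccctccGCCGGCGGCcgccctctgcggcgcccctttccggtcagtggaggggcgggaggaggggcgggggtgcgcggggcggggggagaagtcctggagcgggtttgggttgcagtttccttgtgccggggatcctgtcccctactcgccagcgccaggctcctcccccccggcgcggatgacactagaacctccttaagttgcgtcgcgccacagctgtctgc
VGLL1: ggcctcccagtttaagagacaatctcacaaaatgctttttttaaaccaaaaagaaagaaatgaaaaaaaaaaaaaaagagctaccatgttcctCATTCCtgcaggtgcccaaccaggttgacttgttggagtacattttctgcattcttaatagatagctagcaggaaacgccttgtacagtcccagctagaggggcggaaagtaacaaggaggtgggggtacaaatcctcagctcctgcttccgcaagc
ELF3: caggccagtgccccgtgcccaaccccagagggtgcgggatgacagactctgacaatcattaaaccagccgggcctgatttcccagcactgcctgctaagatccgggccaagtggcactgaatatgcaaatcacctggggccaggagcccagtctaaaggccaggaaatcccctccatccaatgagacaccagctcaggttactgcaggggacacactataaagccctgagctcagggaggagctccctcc
The GATA2 window held a TFAP2 match 151 to 143 bases before the start, and the GATA3 window one 218 to 210 bases before it. The VGLL1 window held a TEAD match on the minus strand, 157 to 152 bases before the start. None of the 3 motifs lay in the window of ELF3. Windows of GATA2 and GATA3 at other starts, not shown, held further TFAP2 matches, and such a window of GATA3 held a TEAD match. Of all 35116 windows, 19.8% held the TFAP2 letters, 11.9% the TEAD letters and 9.17% the GATA letters. The GATA2 and GATA3 windows were rich in G and C (72.8% and 73.6%), with 24 and 26 CpG, against 43.6% with 3 CpG for VGLL1 and 58.4% with 4 CpG for ELF3.

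Levels are given as CPM, counts relative to the library total, after TMM scaling, which sets libraries to a common scale by the bulk of their genes. Folds are ratios of the counts pooled over the 2 libraries of each group, relative to their pooled library size, and so weight the deeper library more than a mean of CPM does. A gene was called higher or lower where its adjusted p was below 0.05 and its absolute log2 fold change above 1. In these bulk samples, fewer cells of a type and less RNA per cell cannot be told apart.

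**Figure D1:**
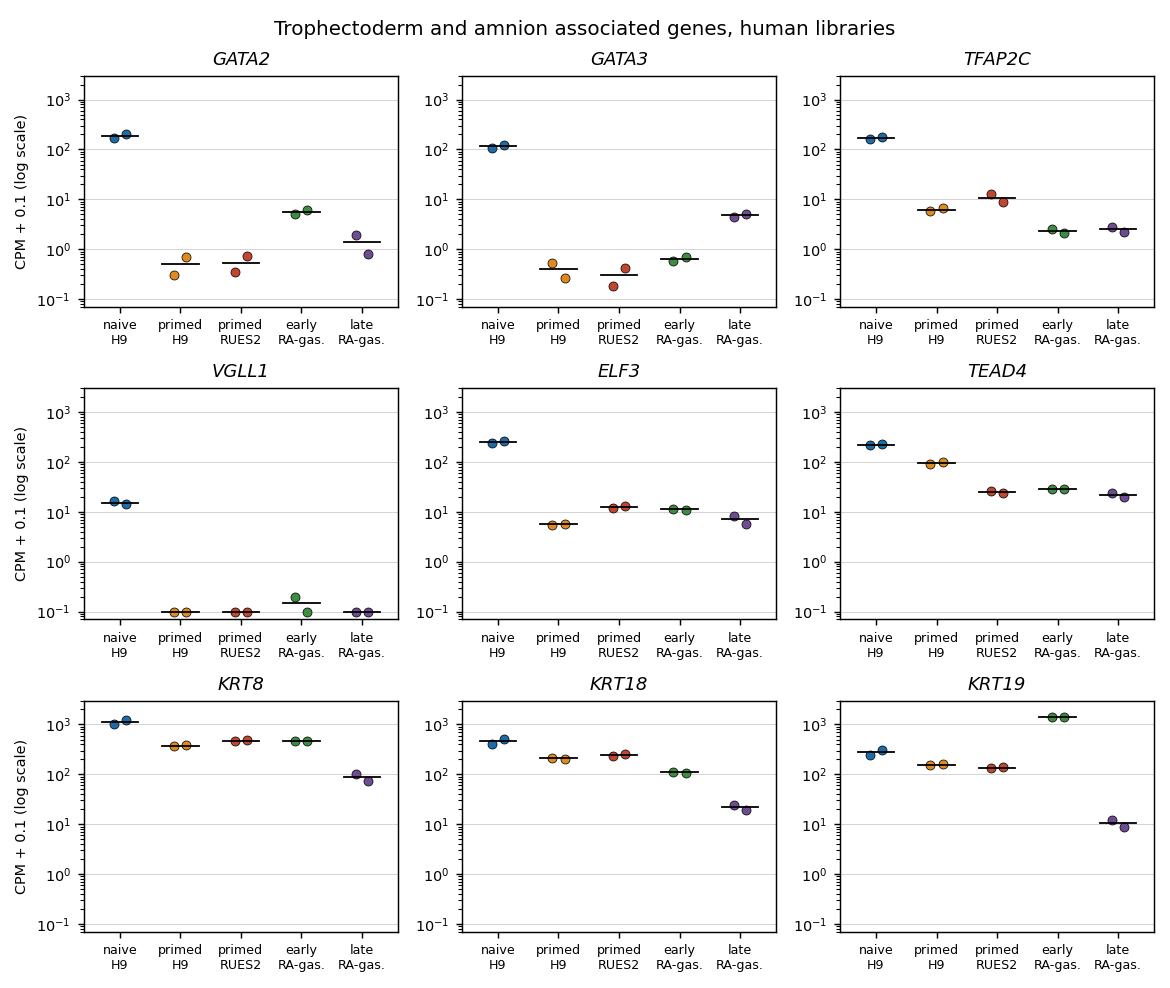
Levels of the 9 genes in the 10 human libraries, in CPM with 0.1 added, on a log axis. Points are libraries, bars are group means. GATA2, GATA3, TFAP2C, VGLL1, ELF3 and TEAD4 stand highest in naïve H9 ESCs, and KRT19 in early RA-gastruloids.

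In human, 8 of the 9 genes fell from naïve to primed H9 ESCs and none rose. The share of all 18300 tested genes called lower in this comparison was 22.3%, and 47.8% were called in either direction. The median log2 fold change was −4.75 over the 9 genes and 0.00 over all genes tested, which is a description of genes chosen with earlier results known. GATA2, a zinc-finger factor of trophoblast and of blood stem cells, had 168.0 and 200.9 CPM in the 2 naïve libraries and 0.210 and 0.596 CPM in the 2 primed H9 libraries. By pooled counts it was 369-fold lower in primed cells (95% counting interval 255 to 556), with a log2 fold change of −8.53 (standard error (SE) 0.23, adjusted p = 2.06e-24 by edgeR's quasi-likelihood test). GATA3, its partner in trophectoderm and a factor of T cells and kidney, had 109.3 and 124.1 CPM in naïve and 0.419 and 0.167 CPM in primed H9 ESCs, 504-fold lower by pooled counts (interval 294 to 947, log2 fold change −8.92, SE 0.23, adjusted p = 7.04e-25). Both genes were close to the counting floor in primed cells, with 3 and 25 reads of GATA2 and 6 and 7 reads of GATA3. Without primed H9 replicate 2, the log2 fold changes were −9.70 for GATA2 and −8.07 for GATA3.

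TFAP2C, an AP-2 factor that acts in trophectoderm, germ cells and the naïve state itself, had 160.3 and 174.2 CPM in naïve and 5.66 and 6.53 CPM in primed H9 ESCs. It was 26.5-fold lower (interval 23.8 to 29.5, log2 fold change −4.75, SE 0.14, adjusted p = 3.72e-23) and, unlike the GATA genes, stayed well above the floor. VGLL1, a cofactor that binds TEAD proteins and marks human trophoblast, had 306 and 250 reads in the naïve libraries (15.99 and 14.3 CPM). It had no read in either primed H9 library. A floor of 3 counts per library puts the difference at 72.3-fold or more, that is, VGLL1 was at least 72.3-fold lower in primed H9 ESCs (adjusted p = 1.73e-17). ELF3, an ETS factor of epithelia, had 240.9 and 260.4 CPM in naïve and 5.31 and 5.65 CPM in primed H9 ESCs, 45.0-fold lower (log2 fold change −5.50, SE 0.14, adjusted p = 1.47e-24).

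TEAD4 and the keratins changed far less. TEAD4, the DNA-binding partner of YAP1 in trophectoderm, stood at 218.7 and 226.9 CPM in naïve and at 92.5 and 101.0 CPM in primed H9 ESCs, 2.25-fold lower (log2 fold change −1.20, SE 0.11, adjusted p = 1.93e-11). KRT8, the type II keratin of simple epithelia, fell from 1018 and 1211 CPM to 367 and 386 CPM, a log2 fold change of −1.57 (SE 0.12, adjusted p = 3.82e-13). KRT18, the type I keratin that pairs with it, fell from 411 and 500.5 CPM to 209 and 208 CPM, a log2 fold change of −1.13 (SE 0.11, adjusted p = 2.13e-10). KRT19, a type I keratin of simple epithelia, had 248 and 313 CPM in naïve and 152.6 and 161.1 CPM in primed H9 ESCs. The groups of KRT19 did not overlap, but its log2 fold change of −0.84 (SE 0.11, adjusted p = 7.19e-08) was inside the threshold of 1, and without naïve replicate 1 it was −1.04, past it. With TPM totals in place of TMM as the scaling, TEAD4 (−0.69) and KRT18 (−0.62) were no longer past that threshold, and the median of all genes moved from 0.00 to 0.51.

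Levels per kilobase of gene length compare genes only roughly. The length counts the exon bases of all annotated transcripts, 6881 for KRT8 and 7186 for ELF3, against 1958 and 2217 for mouse Krt8 and Elf3. Where part of that length is not transcribed in these cells, the value comes out too low. On this scale, naïve H9 ESCs had the keratins on top, KRT8 at 162 ± 19.9 CPM per kilobase (SD, n = 2), KRT18 at 149 ± 20.5 and KRT19 at 120 ± 19.6. KRT18 overlapped with both of the others, while every library of KRT8 was above every library of KRT19. TEAD4 followed at 97.9 ± 2.6, TFAP2C at 55.7 ± 3.3, and then GATA2 at 37.5 ± 4.7, ELF3 at 34.9 ± 1.9 and GATA3 at 34.4 ± 3.1, whose ranges overlapped as well. VGLL1 was lowest at 10.3 ± 0.79 CPM per kilobase. In primed H9 ESCs, the keratins and TEAD4 stayed between 42.5 and 67.9 CPM per kilobase, while TFAP2C was at 2.03, ELF3 at 0.762, GATA3 at 0.0863 and GATA2 at 0.0819.

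Most other trophectoderm and amnion genes moved with the 9 genes of this report. The lists share some genes, so their counts are not separate. TFAP2A and ELF5 stand in the trophectoderm and family lists and TFAP2B in the amnion and family lists. TP63 stands in the trophectoderm and surface ectoderm lists. Of 18 further trophectoderm genes, 17 were tested, of which 14 fell, 1 rose (PLAC1) and 2 were not called, with a median log2 fold change of −5.08. CGA, the alpha subunit of chorionic gonadotropin, had 334.9 and 599.8 CPM in the naïve libraries and 0 and 1 read in the primed H9 libraries. CYP19A1, the aromatase of placenta, had 49.4 and 48.5 CPM in naïve and no read in primed H9 ESCs, at least 233-fold lower. Of 9 amnion genes, 8 fell and 1 rose, with a median of −4.83. DLX5 (8.77 CPM in naïve) and WNT6 (5.57 CPM), both without a read in primed H9 ESCs, were at least 41.8-fold and 26.6-fold lower, and GABRP, an amnion marker, rose from 0.650 to 8.55 CPM. Among 13 tested relatives of the GATA, TFAP2, ELF and CITED families, 7 fell and none rose, including GATA6 (39.0 CPM to no read, at least 186-fold lower) and TFAP2A (22.6 to 0.0238 CPM). The Hippo and TEAD list did not share this fall, with 5 of 14 higher, 3 lower and a median of 0.58. Its counts were near the shares of all tested genes, 25.5% higher and 22.3% lower. The YAP1 target CCN2 rose from 19.5 to 200.5 CPM and the TEAD cofactor VGLL3 from 0.600 to 6.49 CPM. Of 13 junction genes, 5 fell (CLDN4 from 145.8 to 43.8 CPM), 1 rose (PPL, from 21.8 to 83.1 CPM) and 7 were not called.

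The 6 naïve markers (KLF17, SUSD2, DPPA3, DPPA5, KLF4 and TFCP2L1) summed to 3923 and 4187 CPM in naïve H9 ESCs and to between 19.8 and 20.2 CPM in primed H9 ESCs, and all 6 fell. The naïve replicates differed in the sum of their trophectoderm genes, 843 and 1201 CPM in replicates 1 and 2. Most of that gap lay in a single gene, CGA, whose values are given above. The summed level of the 9 genes of this report was 2591 and 3026 CPM in the same order. Of 7 fibroblast markers, 5 fell from naïve to primed H9 ESCs, none rose, and the sums were 665 to 686 CPM in naïve and 267 to 276 CPM in primed H9 ESCs. COL3A1 fell from 176 to 0.0588 CPM, and DCN, LUM and FAP had no read in primed H9 ESCs. Of 4 tested surface ectoderm markers, 3 fell, with sums of 84.2 to 88.9 CPM and 36.3 to 39.7 CPM, and KRT5 had no read in either group while KRT14 had none in primed H9 ESCs. Of 7 tested endothelial and blood markers 2 rose and 3 fell, and the list summed to less in naïve (53.9 to 55.4 CPM) than in primed H9 ESCs (151 to 152 CPM), although RUNX1 fell from 21.7 to 0.364 CPM. Of 4 tested endoderm and notochord markers 1 rose and 1 fell, with sums of at most 8.38 CPM in both groups and SOX17 falling from 5.34 to 0.0349 CPM. Of 3 tested germ cell markers 2 rose and 1 fell, with sums of 62.8 to 67.0 CPM in naïve and 34.0 to 34.1 CPM in primed H9 ESCs and PRDM1 falling from 56.6 to 0.680 CPM. The part of these other markers in the changes above was not tested.

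Between the 2 primed lines, 7 of the 9 genes were not called, against 29.3% of all tested genes called in either direction. ELF3 was higher in RUES2-GLR (11.5 and 12.7 CPM, log2 fold change 1.10, SE 0.18, adjusted p = 2.92e-06) and TEAD4 lower (25.5 and 23.9 CPM, log2 fold change −1.96, SE 0.13, adjusted p = 5.53e-14) than in H9. The median of all genes was −0.12 in this comparison, and it was −1.13 with TPM totals as the scaling. Apart from VGLL1, which had no read in either line, that scaling moved the 9 genes by about as much as the median of all genes. The values on it therefore carry this common shift. On it 3 genes were called lower, TEAD4 (−2.97), KRT19 (−1.22) and GATA2 (−1.55, adjusted p = 0.0312), and none higher, ELF3 was at 0.10, and the signs of TFAP2C (0.89 with TMM), KRT8 (0.32) and KRT18 (0.23) turned. TFAP2C, with 12.5 and 8.92 CPM in RUES2-GLR, was past the threshold under DESeq2's size factors (1.03), in DESeq2 itself (1.03), with upper quartile normalization (1.07), with the compared groups alone in the fit (1.08), with at least 10 counts in each compared sample (1.08) and without RUES2-GLR replicate 2 (1.11). GATA2 and GATA3 had at most 3 reads in each RUES2-GLR library. VGLL1 had no read in either primed line.

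In early RA-gastruloids, KRT19 and GATA2 rose and TFAP2C and KRT18 fell relative to primed RUES2-GLR ESCs, and the other 5 genes were not called. The share of all tested genes called here was 29.6%, 12.0% higher and 17.6% lower. KRT19 stood at 133 and 141 CPM in the primed libraries and at 1390 and 1402 CPM in the early gastruloid libraries. It was 10.4-fold higher (interval 9.91 to 10.8, log2 fold change 3.35, SE 0.12, adjusted p = 1.99e-20). At 598 ± 3.7 CPM per kilobase (SD, n = 2) it ranked first of the 9 genes in that group, ahead of KRT8 at 68.3 ± 0.96. It ranked first in CPM as well, but the size of the gap per kilobase depends on the gene lengths used. KRT8 itself stayed level, at 459 and 483 CPM in primed and 475 and 466 CPM in early gastruloid libraries, with overlapping groups. KRT18 fell from 230.0 and 261.6 CPM to 111 and 107 CPM (log2 fold change −1.17, SE 0.12, adjusted p = 6.96e-10). With TPM totals as the scaling, the median of all genes moved from 0.08 to 0.93, KRT19 stayed higher (4.21), KRT18 was no longer past the threshold (−0.31), TEAD4 (1.06) and GATA3 (2.78) passed it, and KRT8 (0.86) and ELF3 (0.75) turned higher without passing it.

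GATA2 had 3 and 2 reads in primed RUES2-GLR ESCs and 51 and 59 reads in early RA-gastruloids (4.90 and 5.95 CPM), 16.6-fold higher by pooled counts (interval 6.91 to 52.2, log2 fold change 4.02, SE 0.50, adjusted p = 3.78e-08). Without RUES2-GLR replicate 1 its log2 fold change was 2.99. Its early level was well below the 184 ± 23.3 CPM of naïve H9 ESCs. GATA3 had 1 and 1 read in primed and 5 and 6 reads in early gastruloids, a ratio of 4.16 with an interval of 0.907 to 38.6, and was not called (adjusted p = 0.0649). TFAP2C fell from 12.5 and 8.92 CPM to 2.50 and 2.02 CPM (log2 fold change −2.34, SE 0.24, adjusted p = 5.63e-10). ELF3 (11.1 ± 0.103 CPM in early gastruloids, SD, n = 2, log2 fold change −0.10, adjusted p = 0.652) and TEAD4 (28.6 and 29.1 CPM, log2 fold change 0.21, adjusted p = 0.206) were not called. VGLL1 had 1 read in the early gastruloid libraries together and none in primed cells, and no fold is given.

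Of the 17 tested other trophectoderm genes, 5 rose and 3 fell at this step, with a median of −0.01 beside 0.08 for all genes. CDX2, a homeobox factor of trophectoderm and of the posterior body axis, rose from no read to 254 and 261 CPM, at least 269-fold. HAND1, of trophoblast giant cells, heart and lateral mesoderm, rose from 0.159 to 9.72 CPM. CGA had 3 and 0 reads and CYP19A1 5 and 0 reads in early gastruloids, and TFAP2A and KRT7 were among those that fell. Of the 9 amnion genes, 2 rose and 3 fell, the latter including GABRP (14.7 to 0.344 CPM) and IGFBP3 (30.2 to 1.34 CPM). Of 13 junction genes, 6 fell and 1 rose. CDH1, the epithelial cadherin, went from 960.9 to 17.3 CPM and CLDN4 from 130.2 to 4.57 CPM. The family list gave 6 of 13 higher and 2 lower, with GATA6 from 1 read to 140 reads over both libraries. In the Hippo and TEAD list 5 of 14 rose and 4 fell, with CCN2 (119.8 to 5.28 CPM) and CCN1 (231.8 to 19.0 CPM) among the latter. Of 4 tested endoderm and notochord markers 3 rose and none fell, with sums of 11.6 to 13.1 CPM in primed and 42.8 to 44.8 CPM in early gastruloids and SOX17 at 4.16 and 21.9 CPM. Of 3 tested germ cell markers 2 fell and 1 rose, with sums of 97.5 to 107 CPM in primed and 15.3 to 16.05 CPM in early gastruloids, and KIT went from 98.3 to 8.75 CPM. Of 7 fibroblast markers 2 rose and 1 fell, with sums of 562 to 628 and 992 to 1059 CPM. Of 7 endothelial and blood markers 1 rose and 4 fell, the sum going from between 139 and 142 to between 27.5 and 28.7 CPM, GATA1 having no read in early gastruloids, and of 4 surface ectoderm markers 1 rose and 1 fell, the sum going from between 15.3 and 21.5 to between 9.42 and 9.69 CPM, with KRT14 and TP63 having no read in primed cells. The part of these cell types in the GATA2, TFAP2C and keratin changes was not tested.

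From early to late RA-gastruloids, 4 of the 9 genes fell (GATA2, KRT8, KRT18 and KRT19) and GATA3 rose. Of all tested genes 24.9% were called, 11.8% higher and 13.2% lower. This comparison shares the early libraries with the one before it. KRT19 dropped from 1390 and 1402 CPM to 11.9 and 8.87 CPM, 128-fold (interval 115 to 143, log2 fold change −7.03, SE 0.15, adjusted p = 5.82e-26). KRT8 fell to 102.7 and 72.6 CPM, 5.06-fold (log2 fold change −2.41, SE 0.13, adjusted p = 1.29e-16), and KRT18 to 24.3 and 18.9 CPM, 4.83-fold (log2 fold change −2.31, SE 0.13, adjusted p = 8.77e-16). GATA2 had 38 and 7 reads in the late libraries, 1.84 and 0.713 CPM (log2 fold change −1.89, SE 0.30, adjusted p = 2.89e-06), and the log2 fold change was −2.91 without late replicate 1. GATA3 went the other way, from 5 and 6 reads to 89 and 49 reads (4.31 and 4.99 CPM), 8.37-fold higher (interval 4.54 to 17.2, log2 fold change 3.06, SE 0.36, adjusted p = 1.37e-08). TFAP2C (2.67 and 2.14 CPM) overlapped with its early level, and ELF3 (log2 fold change −0.62, adjusted p = 0.00301) and TEAD4 (−0.40, adjusted p = 0.00922) stayed inside the fold threshold. VGLL1 had no read.

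The late fall was shared by other epithelial genes. Of 13 junction genes, 8 fell and 1 rose, with a median of −2.07 beside 0.00 for all genes. CLDN6 went from 275.7 to 1.49 CPM and CDH1 from 17.3 to 0.0994 CPM. Of 17 tested trophectoderm genes, 5 fell and none rose, with CDX2 at 257.5 and 24.7 CPM and HAND1 from 9.72 CPM to no read, at least 31.8-fold lower. The amnion list split into 4 higher and 4 lower, with IGFBP3 (1.34 to 7.85 CPM) and MSX2 (8.59 to 30.1 CPM) higher. In the Hippo and TEAD list, 4 of 14 rose and 1 fell, with CCN2 from 5.28 to 63.9 CPM and AMOT, a junction protein that holds YAP1, from 37.7 to 427.8 CPM. The family list gave 4 of 13 higher and 6 lower, ELF4 falling from 16.45 to 1.27 CPM. All 4 tested endoderm and notochord markers fell, their sum going from between 42.8 and 44.8 to between 4.48 and 5.91 CPM with no read of NOTO, and 3 of 4 surface ectoderm markers fell, to a sum of 1.83 to 1.99 CPM with no read of KRT5 or KRT14. In the endothelial and blood list 4 of 7 rose and 1 fell, with sums of 27.5 to 28.7 and 56.8 to 69.3 CPM. In the fibroblast list 4 of 7 rose and 1 fell, with sums of 992 to 1059 and 602 to 704 CPM. Their part in the rise of GATA3 or the fall of the keratins was not tested.

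**Figure D2:**
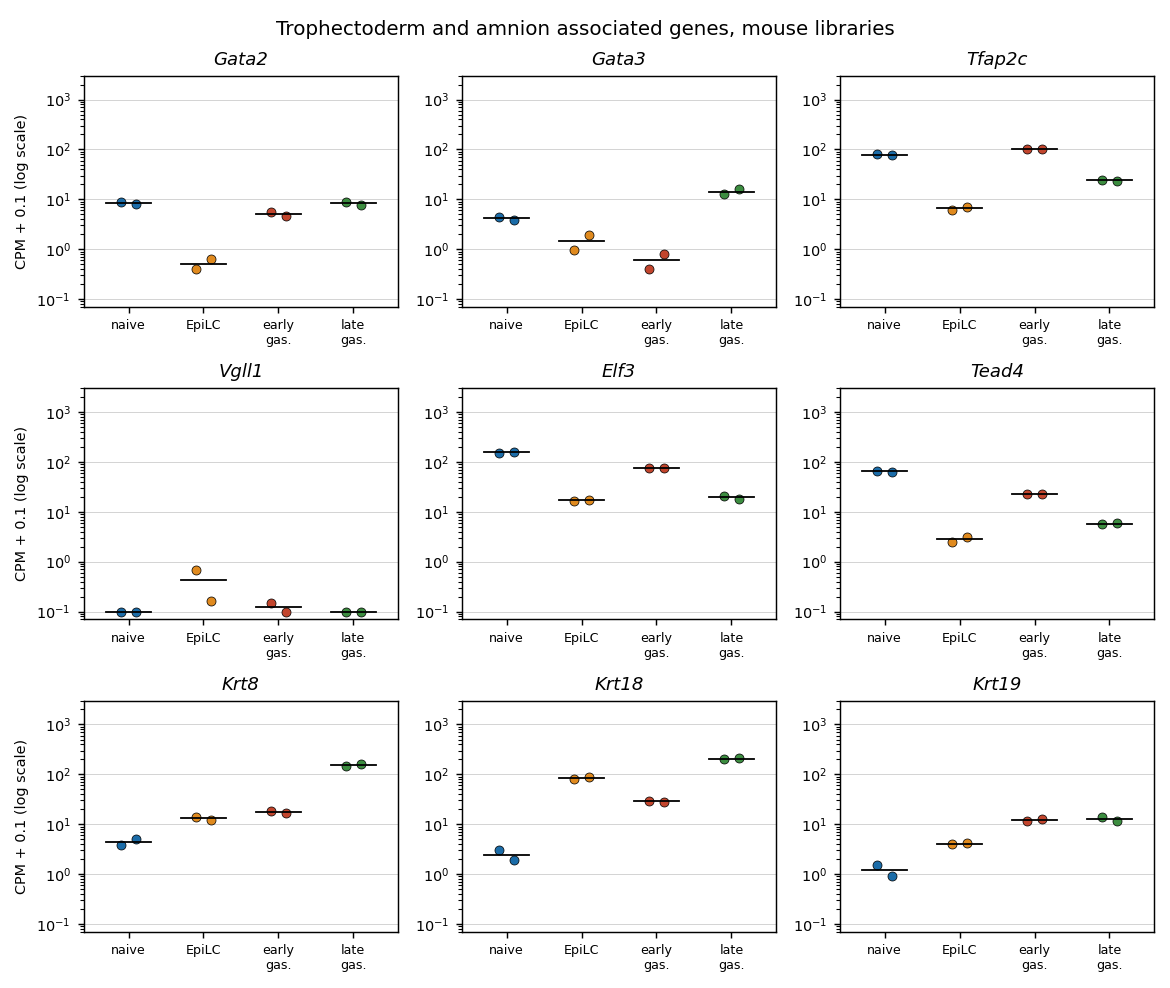
Levels of the 9 genes in the 8 mouse libraries, in CPM with 0.1 added, on a log axis. Points are libraries, bars are group means. Tfap2c, Elf3 and Tead4 dip in EpiLCs, while Krt8 and Krt18 stand highest in late gastruloids.

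In mouse, the transcription factor genes fell from naïve ESCs to EpiLCs, as the 3 keratins rose. Of the 8 tested genes, 5 fell and 3 rose. The shares of all 15003 tested mouse genes were 12.1% lower, 17.7% higher and 29.8% in either direction. Tead4 had 66.0 and 63.5 CPM in naïve ESCs and 2.37 and 3.09 CPM in EpiLCs, 22.5-fold lower (interval 17.4 to 29.4, log2 fold change −4.49, SE 0.14, adjusted p = 4.99e-35). Gata2 had 64 and 89 reads in naïve ESCs (8.93 and 7.98 CPM) and 2 and 8 reads in EpiLCs, 18.3-fold lower (interval 9.71 to 39.0, log2 fold change −4.17, SE 0.35, adjusted p = 7.11e-16). Tfap2c fell from 81.8 and 75.8 CPM to 5.91 and 7.04 CPM (log2 fold change −3.55, SE 0.11, adjusted p = 1.84e-35) and Elf3 from 152.5 and 160.6 CPM to 16.7 and 17.4 CPM (log2 fold change −3.19, SE 0.09, adjusted p = 9.8e-39). Gata3 stood at 4.33 and 3.77 CPM in naïve ESCs and 0.887 and 1.84 CPM in EpiLCs (log2 fold change −1.38, SE 0.34, adjusted p = 0.000329). Without EpiLC replicate 2, the log2 fold changes were −4.77 for Gata2 and −2.16 for Gata3. Vgll1 had no read in naïve ESCs, 4 and 1 reads in EpiLCs, 1 and 0 reads in early and no read in late gastruloids.

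Krt18 rose most, from 21 and 20 reads (2.93 and 1.79 CPM) to 555 and 1347 reads (82.1 and 88.6 CPM), 38.7-fold (interval 28.4 to 54.1, log2 fold change 5.25, SE 0.14, adjusted p = 7.05e-39). Krt8 rose from 3.77 and 5.02 CPM to 14.0 and 12.2 CPM (log2 fold change 1.504, SE 0.18, adjusted p = 6.59e-11) and Krt19 from 1.40 and 0.807 CPM to 3.84 and 4.15 CPM (log2 fold change 1.95, SE 0.35, adjusted p = 1.96e-06). In EpiLCs, Krt18 stood at 59.4 ± 3.2 CPM per kilobase (SD, n = 2) and its partner Krt8 at 6.71 ± 0.65. In mouse naïve ESCs Elf3 led at 70.6 ± 2.6 CPM per kilobase, followed by Tfap2c at 21.4 ± 1.1 and Tead4, and no keratin exceeded 2.57 in a library.

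Markers of other cell types moved at the step to EpiLCs as well. Of 6 germ cell markers 2 fell and 1 rose, with sums of 303 to 306 CPM in naïve ESCs and 84.7 to 87.1 CPM in EpiLCs, and Kit went from 248 to 9.71 CPM. Of 3 tested surface ectoderm markers 2 rose and 1 fell, with sums of 30.7 to 33.3 and 59.9 to 63.1 CPM, Grhl2 going from 4.83 to 58.3 CPM and Krt5 having no read in either group. All 5 tested naïve markers fell. Their part in the changes of the factors and the keratins was not tested.

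In early mouse gastruloids, Tfap2c, Tead4, Elf3, Gata2 and Krt19 were higher than in EpiLCs. Against EpiLCs, 5 of 8 genes rose and 2 fell, where 20.9% of all tested genes were called, 11.7% higher and 9.24% lower. Tfap2c rose to 104.2 and 101.8 CPM, 15.4-fold (log2 fold change 3.95, SE 0.10, adjusted p = 1.34e-38), Tead4 to 22.1 and 23.0 CPM, 7.82-fold (2.97, SE 0.16, adjusted p = 1.23e-23), and Elf3 to 76.9 and 74.6 CPM, 4.42-fold (2.14, SE 0.09, adjusted p = 3.03e-29). Gata2 rose to 5.53 and 4.57 CPM (log2 fold change 3.47, SE 0.36, adjusted p = 2.68e-12, and 4.07 without EpiLC replicate 2) and Krt19 to 11.3 and 12.8 CPM (1.56, SE 0.19, adjusted p = 2.63e-10). Krt18 fell to 29.8 and 28.1 CPM (−1.56, SE 0.08, adjusted p = 2.8e-25). Gata3 fell to 6 and 8 reads (log2 fold change −1.76, SE 0.48, adjusted p = 0.00129), a call that was lost without replicate 2 of EpiLCs (adjusted p = 0.302) and without replicate 1 of early gastruloids (adjusted p = 0.0934). Krt8, at 18.6 and 16.4 CPM, was inside the threshold (0.46, adjusted p = 0.000782).

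Mouse gastruloids were made from naïve ESCs directly, so the same early libraries can be set against those. Here 3 genes rose (the keratins), 3 fell (Gata3, Elf3 and Tead4) and 2 were not called, with 23.0% of all tested genes called, 16.2% higher and 6.81% lower. The log2 fold changes were 1.96 for Krt8, 3.69 for Krt18 and 3.50 for Krt19, and −3.13 for Gata3 (−2.49 without early replicate 1), −1.05 for Elf3 and −1.52 for Tead4. Elf3 lies at the threshold and was inside it with upper quartile normalization (−0.999), with TPM totals (−0.96) and with at least 10 counts required in each compared sample (−0.99). Tfap2c (0.39, adjusted p = 2.48e-06) and Gata2 (−0.70, adjusted p = 0.00193) differed from naïve ESCs by less than the threshold. The comparisons of early gastruloids with EpiLCs and with naïve ESCs share the early libraries.

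From early to late mouse gastruloids, Gata3, Krt8 and Krt18 rose and Tfap2c, Elf3 and Tead4 fell. Of all tested genes 39.2% were called, 20.1% higher and 19.1% lower. Gata3 had 6 and 8 reads in early and 107 and 107 reads in late gastruloids (12.5 and 15.9 CPM), 31.6-fold higher (interval 18.4 to 58.8, log2 fold change 4.95, SE 0.32, adjusted p = 4.56e-21), with 4.30 without early replicate 1. Krt8 rose to 147.9 and 158.9 CPM, 8.59-fold (log2 fold change 3.11, SE 0.09, adjusted p = 4.68e-38), and Krt18 to 203.2 and 210.3 CPM, 7.08-fold (2.83, SE 0.07, adjusted p = 2.62e-39). Krt19 did not follow them, at 13.9 and 11.6 CPM beside 11.3 and 12.8 CPM, with overlapping groups (0.11, adjusted p = 0.546). Tfap2c fell to 24.2 and 23.5 CPM (−2.11, SE 0.09, adjusted p = 1.22e-29), Elf3 to 20.7 and 18.3 CPM (−1.95, SE 0.09, adjusted p = 5.17e-27) and Tead4 to 5.49 and 5.96 CPM (−1.98, SE 0.15, adjusted p = 1.43e-17). Gata2, at 8.87 and 7.74 CPM, was above its early level by less than the threshold (0.70, SE 0.21, adjusted p = 0.00219).

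**Figure D3:**
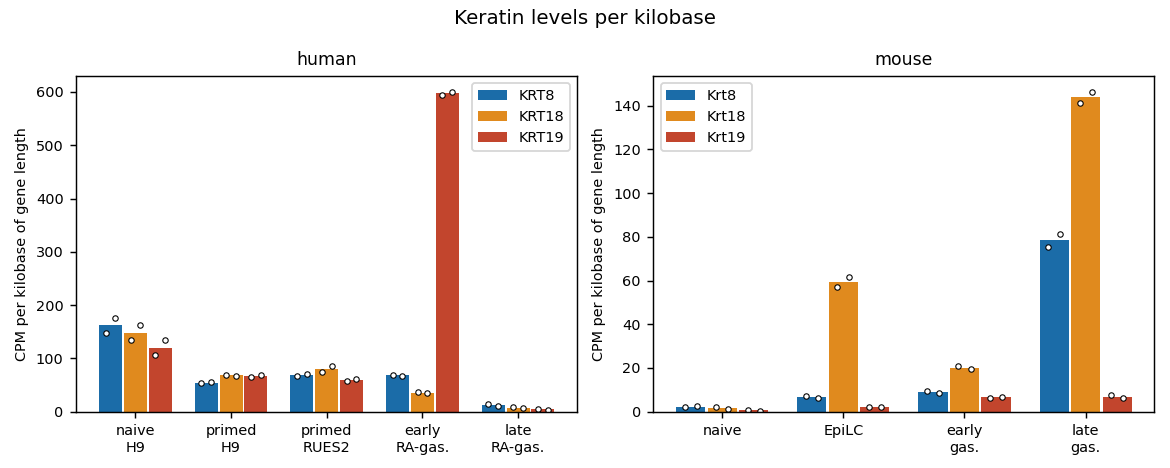
Levels of the 3 keratin genes in CPM per kilobase of gene length, human on the left and mouse on the right, on separate scales. Bars are group means from 0 and points are libraries. KRT19 stands apart in human early RA-gastruloids, and Krt18 and Krt8 in mouse late gastruloids. Gene length counts the exon bases of all annotated transcripts, so bars of different genes compare only roughly.

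Mouse trophectoderm genes other than the 9 did not fall together. From naïve ESCs to EpiLCs, 8 of 12 tested rose and 2 fell (median 2.18 beside 0.02 for all genes), Krt7 rising from 0.319 to 5.57 CPM and Cdx2 falling from 7.76 to 0.468 CPM. The 18 listed genes were low, summing to 28.5 CPM in naïve ESCs and 32.2 CPM in EpiLCs. Means of at least 1 CPM were reached by 4 of them in naïve ESCs and 7 in EpiLCs. From naïve ESCs to early gastruloids, 8 rose and 1 fell, Ascl2 rising from 1.84 to 12.4 CPM and Tfap2a falling from 8.69 to 1.61 CPM. From EpiLCs to early gastruloids, 2 rose and 3 fell, Eomes rising from 7.18 to 32.9 CPM. From early to late gastruloids, 7 rose and 3 fell (median 1.89 beside −0.03), with Hand1 from 0.785 to 175.8 CPM and Dab2 from 0.895 to 30.5 CPM. Havcr1, Cga and Cyp19a1 had no read in late gastruloids. Only 5 amnion genes could be tested in mouse. From early to late gastruloids, 3 of them rose, among them Isl1 (0.310 to 23.0 CPM) and Msx2 (0.428 to 22.1 CPM), and 1 fell. Of 12 tested family relatives, 5 rose and 2 fell at this step, with Gata6 from 0.640 to 175.2 CPM, and Gata5 from no read to 13.01 CPM, at least 49.3-fold. In the Hippo and TEAD list, 6 of 13 rose and 2 fell, Amot rising from 38.6 to 730.3 CPM. Tead1, a relative of Tead4, went from 83.9 CPM in naïve ESCs to 31.5 CPM in EpiLCs and 233.8 CPM in early gastruloids, and was not called from early to late gastruloids.

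Junction genes in mouse rose from naïve ESCs to EpiLCs (7 of 13 higher and 2 lower, Cldn6 from 3.72 to 125.7 CPM) and fell from early to late gastruloids (7 lower and 2 higher, Cldn4 from 230.4 to 31.0 CPM), the step at which Krt8 and Krt18 rose. Markers of several cell types also rose in late gastruloids. All 6 tested fibroblast markers and 5 of 6 endoderm and notochord markers were higher, with sums from between 2.52 and 2.99 to between 491 and 533 CPM and from between 6.62 and 7.04 to between 115 and 120 CPM. Of 6 endothelial and blood markers 4 were higher and 1 lower, with sums of 150 to 152 and 239 to 240 CPM and no read of Klf1 in late gastruloids. Of 6 germ cell markers 2 were higher and 4 lower, with sums of 133 to 140 and 336 to 338 CPM. Surface ectoderm markers gave 2 of 3 lower, with sums of 117 to 122 and 21.9 to 22.9 CPM. All 5 tested naïve markers fell, from sums of 1429 to 1461 to sums of 144 to 145 CPM. They had also been lower in EpiLCs (705 to 721 CPM) than in naïve ESCs (2748 to 2821 CPM) and in early gastruloids. The part of these cell types in the member changes was not tested.

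**Figure D4:**
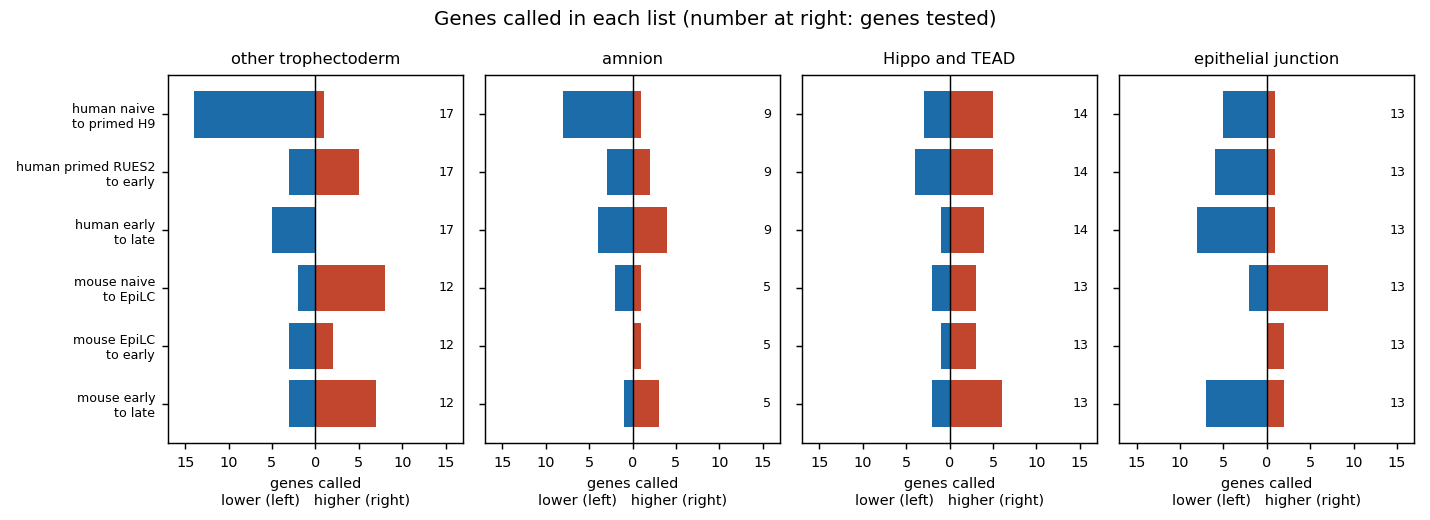
Number of genes called lower (left, blue) and higher (right, red) in 4 lists of related genes over 6 comparisons, with the number tested at the right edge of each panel. The human naïve to primed step has 14 of 17 trophectoderm and 8 of 9 amnion genes lower, while in mouse 8 of 12 trophectoderm genes are higher at the matching step. The trophectoderm list summed to 1022 CPM in naïve and 32.4 CPM in primed H9 ESCs. In mouse it summed to 28.5 CPM in naïve ESCs and 32.2 CPM in EpiLCs.

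The same step in the 2 species was compared directly, as the difference of the log2 fold changes in 1 fit over 14006 matched genes. From naïve to primed cells, all 8 genes tested in both species differed, where 42.1% of all matched genes did. The change in mouse was the higher for 7 of the 8, and for 23.2% of all matched genes. Between early and late gastruloids, all 8 differed as well, where 35.4% of all matched genes did, and the change in mouse was the higher for 5 of the 8 and for 18.7% of all matched genes. At the first step GATA2 and GATA3 fell further in human, by 4.46 (SE 0.78) and 7.65 (SE 0.55) on the log2 scale, and TEAD4 fell further in mouse, a difference of −3.18 (SE 0.18). Mouse naïve ESCs had 8.46 CPM of Gata2 and 4.05 CPM of Gata3, naïve H9 ESCs 184 and 117 CPM. From the mouse levels, a fall as large as in human could not be resolved from the floor of 0.148 to 0.447 CPM. Leaving out 1 library moved the difference for GATA2 to 5.64 (without primed H9 replicate 2) and 3.81 (without EpiLC replicate 2), and either of these moved that for GATA3 to about 6.8. The keratins moved in opposite directions, lower in human and higher in mouse, with differences of 3.19 for KRT8, 6.48 for KRT18 and 2.90 for KRT19, of which KRT19 was inside the fold threshold in human. At the second step the keratins again parted. KRT8 and KRT18 fell in human and rose in mouse, with differences of 5.38 (SE 0.16) and 4.99 (SE 0.16), and KRT19 fell in human alone by the calls, with a difference of 6.99 (SE 0.22). GATA3 rose in both species, and its difference of 1.76 (SE 0.68, adjusted p = 0.0268) had the highest adjusted p of the 16. Leaving out one of 5 libraries in turn moved that adjusted p to between 0.0516 and 0.198, and the difference to 1.13 without mouse early replicate 1. For GATA2, the difference of 2.44 became 3.40 without late RA-gastruloid replicate 1. In human, the first step also compares cells grown and reset differently, and human and mouse late gastruloids differ in RA treatment and hours in culture, so that species and protocol cannot be told apart.

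**Figure D5:**
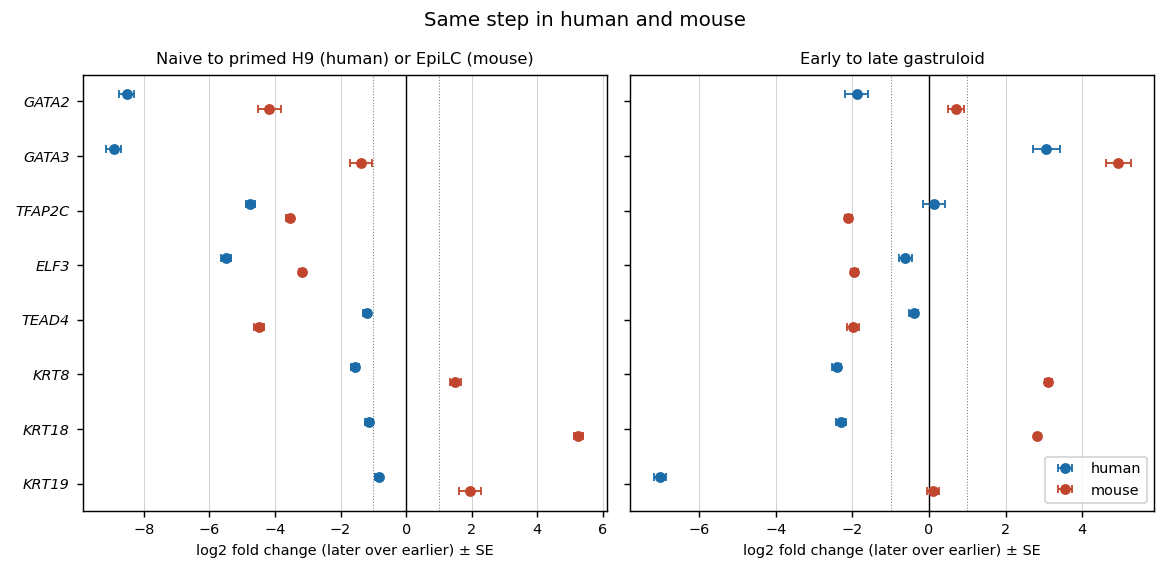
Log2 fold changes with SE of the 8 genes tested in both species, human in blue and mouse in red, for the naïve to primed step (left) and the early to late gastruloid step (right). Dotted lines mark a log2 fold change of 1. Keratin points lie left of 0 in human and right of 0 in mouse, with mouse KRT19 at the second step close to 0.

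Across the 10 human libraries, log2 CPM of the 9 genes correlated positively for 35 of 36 pairs, most for VGLL1 and ELF3 (r = 0.978) and for KRT8 and KRT18 (0.949), and least for GATA3 and KRT19 (−0.122). Across the 8 mouse libraries, 14 of 28 pairs were positive, from Elf3 and Tead4 (0.984) to Elf3 and Krt18 (−0.930). These values describe 5 and 4 group means with their replicates and are not over independent conditions. In human, every one of these genes but KRT19 had its highest mean in naïve H9 ESCs. The share of positive pairs among all genes was not computed, so the counts of positive pairs show nothing particular to these genes. Among genes reaching 10 CPM in a group, those most like TEAD4 were FTSJ1 and CCNE1 (0.998 each), those most like KRT8 were VENTX (0.992) and CDA (0.989), and those most like KRT19 were NR1D1 (0.988) and PCED1B (0.984). In mouse, Krt8 was most like Antxr2 (0.999) and Zhx1 (0.998), and Tfap2c most like Zfp710 and Tbc1d24 (0.997 each).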

How the data were processed

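RNA-seq counts per gene of 10 human and 8 mouse libraries were used as deposited. Per the labels and the methods of the study, poly(A) RNA libraries were made with a NEBNext Ultra II kit, reads were demultiplexed with bcl2fastq 2.20, trimmed by the authors with Trimmomatic 0.39, mapped by STAR (GRCh38 for human, GRCm39 for mouse) and turned into whole-number counts by featureCounts. The annotation release was not given in the sources used here. Replicates of a stage came from 1 experimental batch. Gene IDs were named from GENCODE annotations (44876 of 44910 human and 29486 of 29720 mouse IDs matched).

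Counts were tested in R 4.3.3 with edgeR 4.0.16 (filterByExpr, TMM, glmQLFit and glmQLFTest, 2-sided), in 1 fit per species over all groups, with Benjamini-Hochberg adjustment over all 18300 or 15003 tested genes. Species differences were interaction terms in a fit over 14006 matched genes. The biological coefficient of variation was 8.18% in human and 4.30% in mouse. Counting intervals are exact at 95% and cover counting error only. The floor of 3 counts equals 0.0715 to 0.956 CPM in human and 0.148 to 0.447 CPM in mouse libraries. The steps were tested on simulated data with 200 changed genes. With 2 replicates per group, p-values rest on a spread estimated over all groups of a species. Replicates were not equally alike. The chi-square between replicate counts per degree of freedom, which also grows with depth, was 12.3 in late RA-gastruloids and 7.16 in naïve H9 ESCs. It was 1.58 to 2.94 in the other human groups and 2.16 to 3.72 in mouse. Comparisons with late RA-gastruloids or naïve H9 ESCs can therefore have SEs and p-values that are too small.

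The genes and lists were chosen with earlier results of these data known. Named list genes were up to 2 called genes per list and comparison with the largest absolute log2 fold change and a group mean of at least 5 CPM, and others named beside them were chosen after their values were seen. Likeness is Pearson's r of log2 CPM (prior count 2) with 2 genes per member. Figures were drawn with matplotlib 3.10.9. Alternatives were other normalizations, filters, DESeq2 1.42.0, a replicate block, and leaving out each library.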

Additional observations from a re-analysis of the deposited data

Results flagged for a closer look

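All 16 differences between human and mouse in the change of these genes passed the test of the difference itself, among 42.1% of all matched genes from naïve to primed cells and 35.4% from early to late gastruloids. Values are the mouse minus the human log2 fold change, by edgeR's quasi-likelihood test. From naïve to primed cells the difference was 4.46 for GATA2 (adjusted p = 6.22e-06), 7.65 for GATA3 (1.59e-14), 1.30 for TFAP2C (3.21e-07) and 2.42 for ELF3 (3.65e-15), genes that fell in both species. In mouse, Gata2 and Gata3 began at 8.46 and 4.05 CPM. From there, a fall as large as in human could not be resolved from the floor. The difference was −3.18 for TEAD4 (3.5e-17), which fell more in mouse. For the keratins it was 3.19 for KRT8 (6.23e-15), 6.48 for KRT18 (9.77e-25) and 2.90 for KRT19 (2.58e-09).

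From early to late gastruloids the difference was 2.44 for GATA2 (adjusted p = 4.09e-07) and 1.76 for GATA3 (0.0268). It was −2.38 for TFAP2C (6.09e-09), −1.48 for ELF3 (4.2e-08) and −1.72 for TEAD4 (1.55e-09), which were called lower in mouse and not called in human. It was 5.38 for KRT8 (3.19e-25), 4.99 for KRT18 (2.38e-24) and 6.99 for KRT19 (9.15e-25). Species, line and protocol cannot be told apart in these differences.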

How the results depend on the processing

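The counts of genes called stayed within 1.5 times their value under the alternatives tried, with 5 exceptions. By adjusted p alone, 4 genes in place of 2 were called between the primed lines. Requiring at least 10 counts in each compared sample left fewer genes to test and gave 5 in place of 8 from human naïve to primed H9 ESCs, 3 in place of 5 from early to late RA-gastruloids, 5 in place of 8 from mouse naïve ESCs to EpiLCs and 3 in place of 6 from mouse naïve ESCs to early gastruloids. Leaving out each library in turn gave 8 to 9 genes from human naïve to primed H9, 2 to 3 between the primed lines, 6 to 7 from EpiLCs to early gastruloids and 7 to 8 species differences from early to late.

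Leaving out 1 library turned the sign of genes that were not called: GATA2 (from −0.88 to 0.60, with 0.60 without primed H9 replicate 2, 0.50 without RUES2-GLR replicate 1) and GATA3 (from −1.63 to 0.57) between the primed lines, KRT8 (0.0024 and 0.031) from primed to early, TFAP2C (−0.0088 and −0.082, up to 0.30) from early to late RA-gastruloids and Krt19 (−0.0012 and −0.032, up to 0.23) from early to late in mouse. TPM totals as the scaling, chosen after seeing the data, turned TFAP2C (−0.12), KRT8 (−0.70) and KRT18 (−0.79) between the primed lines and ELF3 (0.75) and KRT8 (0.86) from primed to early. This scaling moved the median of all genes from −0.12 to −1.13 and from 0.08 to 0.93 in these comparisons, and the genes that turned moved by about as much. The cause of the turns without 1 library was not tested. The replicate numbers did not pair the samples (correlations of deviations from −0.112 to 0.068 in human and −0.048 to 0.008 in mouse), and with the replicate block the call was the same in all 93 results, with 8 genes called from human naïve to primed H9. At the depth of RUES2-GLR replicate 2, GATA2, GATA3 and VGLL1 could not be resolved from the floor.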
